A study of Mus musculus with 5 samples.

Results

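The cells described here are 202 granulosa cells of the peripubertal mouse ovary that carried transcripts of at least 3 of the 5 genes Lox, Adamts5, Dpp4, Neto2 and Slc1a1. They were found among 48163 cells. A cell was taken when it had at least 1000 detected genes, a mitochondrial share under 15%, at least 2 UMIs (unique molecular identifiers, each standing for 1 captured transcript) of Inha and at least 1 of Nr5a2, and no UMI of Pamr1, Ube2c or Dcn. These cells are called Lox/Adamts5 cells below, and "members" in the plots. The other granulosa cells met every condition but had at most 2 of the 5 genes, and numbered 10105.

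Whole ovaries came from untreated C57BL6/J mice and were dissociated with trypsin. Live cells were sequenced by the droplet-based 10x Genomics 3′ method. Mice were 2, 3, 4, 5 or 6 wk old, and each age was 1 library, with no replicate. The libraries held 9471, 9253, 11077, 7779 and 10583 cells, and 124938004, 93438618, 117666094, 107071492 and 144609431 UMIs, at 2, 3, 4, 5 and 6 wk. How many mice gave each library is not given in the sources used here.

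Granulosa cells surround and nourish the oocyte. In growing follicles they divide, make inhibin and activin subunits and anti-Mullerian hormone, and in large antral follicles they turn androgen into oestrogen with aromatase. Most follicles never ovulate and undergo atresia, and the study asked what becomes of the first follicles that grow in the juvenile ovary. Of the genes that chose the cells, Lox encodes lysyl oxidase, which crosslinks collagen and elastin. Adamts5 encodes a secreted protease that cuts proteoglycans such as versican, Dpp4 a peptidase of the cell surface, Neto2 an accessory subunit of kainate receptors, and Slc1a1 a glutamate transporter. Inha encodes the inhibin alpha subunit and Nr5a2 a nuclear receptor of granulosa cells.

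Because Ghr, the growth hormone receptor gene, Cald1 and Rbms3 were among the raised genes named in Lox/Adamts5 cells (below), the sequence just before their transcript starts is shown, where it matched a motif. The motifs searched, on both strands, were TGANTCA (the AP-1 site), CAAGGNCA (an NR5A element) and GTAAACA (a forkhead site), and no matches printed here overlap. The windows reached from 250 bases before to 50 bases after a transcript start in RefSeq (GRCm38.p6), and genes with more than 1 listed start were searched at each of them (32851 windows). Capitals mark the motif, and each sequence is read along the strand of the gene, so that the Rbms3 match is the NR5A element in reverse.
Ghr, AP-1, minus strand of chr15:3581860-3581886: gttggcttccTGAATCAgggtgttgag
Cald1, AP-1, plus strand of chr6:34709237-34709263: ttgatttctcTGAGTCAagcttataaa
Cald1, forkhead, plus strand of chr6:34598449-34598475: cctgctgactGTAAACAtagggggtat
Rbms3, NR5A element, minus strand of chr9:117629922-117629949: gggcacagcgTGTCCTTGgatctgggga
The Ghr match began 34 bases before an alternative start that lies inside the gene as annotated below, and the AP-1 match of Cald1 began 197 bases before a start that also lies inside its gene (chr6:34598500-34775473). Of the 5 genes of the rule and the 12 raised genes named below, 13 of 17 had an entry, and 2 held an AP-1 match, 1 an NR5A match and 1 a forkhead match. Of the 12 lowered genes named below 8 had an entry, and 1, Adgrg1, held an AP-1 match. Among all 27025 genes with a promoter entry 8.97% held an AP-1 match, 7.64% an NR5A match and 4.05% a forkhead match. These are matches of letters and do not show that a factor binds there.

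Lox/Adamts5 cells were found almost entirely in the 3 older libraries. None of 1854 granulosa cells that passed the other conditions qualified at 2 wk (95% exact binomial interval 0 to 0.199%). At 3 wk 1 of 2253 did (0.0444%, 0.00112 to 0.247). At 4 wk 98 of 2710 qualified (3.62%, 2.95 to 4.39), at 5 wk 29 of 1423 (2.04%, 1.37 to 2.91) and at 6 wk 74 of 2067 (3.58%, 2.82 to 4.47). These intervals cover counting error only, since the spread between mice of an age was not measured. The shares at 4, 5 and 6 wk all lay above the limits at 2 and 3 wk, while the share at 5 wk was lower than at 4 and 6 wk. Scarcity at 2 and 3 wk was not particular to these cells. The Pamr1-type cells described below numbered 9, 6, 124, 69 and 71 at 2, 3, 4, 5 and 6 wk. The S100a6-type cells described below numbered 1, 1, 150, 128 and 78.

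Depth differed between the groups and libraries. Lox/Adamts5 cells had a median of 12734 UMIs at 4 wk, 20633 at 5 wk and 20506 at 6 wk, against 12094, 16000 and 16586 in the other granulosa cells. When each cell was thinned to 10000 UMIs before the rule was applied, and shallower cells were left out, 62 of 2134 cells (2.91%, 2.23 to 3.71) qualified at 4 wk, 17 of 1295 (1.31%, 0.767 to 2.09) at 5 wk and 35 of 2136 (1.64%, 1.14 to 2.27) at 6 wk. At equal depth the 4 wk library thus had the highest share, and none qualified at 2 or 3 wk. The Dcn condition removed an unequal share of cells in each library. Of cells with the Inha and Nr5a2 UMIs, 23.5%, 14.2%, 15.4%, 11.2% and 21.1% had a Dcn UMI at 2, 3, 4, 5 and 6 wk. Without the Dcn condition, the 2 and 3 wk libraries held 6 and 5 such cells, and those at 4, 5 and 6 wk held 115, 41 and 88.

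**Figure D1:**
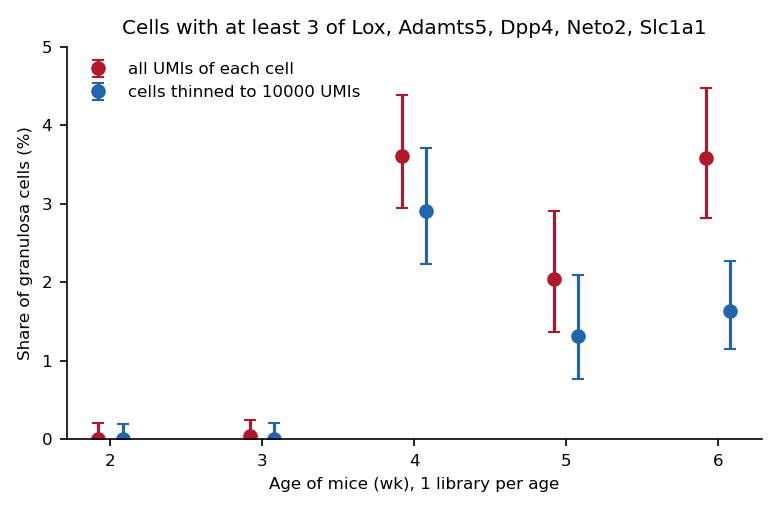
Share of granulosa cells (%, vertical axis) that qualified as Lox/Adamts5 cells in the library of each age (wk, horizontal axis), at full depth (red) and after thinning to 10000 UMIs (blue). Bars are 95% exact binomial intervals of counting error. Shares at full depth were 3.62%, 2.04% and 3.58% at 4, 5 and 6 wk, and 0.0444% or less before.

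The rule made a small and graded group. Of the 202 cells 156 had 3 of the 5 genes, 40 had 4 and 6 had all 5, and just outside the threshold stood 536 cells with 2 genes, while 2249 had 1 and 7320 had none. Adamts5 was detected in 91.1% of the chosen cells, Neto2 in 82.7%, Lox in 67.3%, Slc1a1 in 51.0% and Dpp4 in 33.7%. Before the conditions on Pamr1, Ube2c and Dcn, 416 cells qualified, of which 54 were lost to Pamr1 alone, 37 to Ube2c alone, 53 to Dcn alone and 70 to several of them. The 1 cell at 3 wk entered no test. The combination of Lox, Adamts5 and Neto2 alone was the most common, with 57 cells. A cell held a median of 7.5 UMIs of the 5 genes together, and 21 cells qualified on exactly 3 UMIs. These values describe the choice and carry no test.

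The 5 genes also had UMIs outside the group. In counts per 1e+06 UMIs (CPM), taken over the cells of a group in 1 library, Adamts5 was at 206, 382 and 325 in the Lox/Adamts5 cells at 4, 5 and 6 wk, and at 37.8, 30.9 and 44.6 in the other granulosa cells. Lox was at 116, 106 and 82.6 CPM against 10.6, 6.17 and 4.60. In blood cells (with UMIs of Laptm5, Ptprc and Tyrobp, and fewer than 2 of Inha), which should lack Lox and Adamts5, the share with an Adamts5 UMI was 8.82%, 4.00% and 0%, at median depths of 7648, 9005 and 9873 UMIs, and that with a Lox UMI was 8.82%, 1.33% and 1.69%. In the other granulosa cells the share with an Adamts5 UMI was 19.6%, 20.4% and 26.8%, and that with a Lox UMI was 8.81%, 6.38% and 4.77%, so that Lox at 4 wk was at the level of blood cells. Dpp4 was found in 5.88%, 8% and 18.6% of blood cells and in 1.45%, 1.65% and 1.35% of other granulosa cells, but some blood cells express Dpp4, so that blood cells give no background for it. Of the blood cells, 2 of 34, 0 of 75 and 0 of 59 had 3 of the 5 genes, and the counts of 0 allow shares of up to 4.00% and 5.08%. The share at 4 wk, 5.88% of 34 cells (0.720 to 19.7), was not below the 3.62% of granulosa cells that qualified.

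Granulosa markers were present, at lower levels than in the other granulosa cells. Of the granulosa markers outside the rule, Fst, which encodes the activin-binding follistatin, was at 260, 232 and 263 CPM in the Lox/Adamts5 cells and at 378, 418 and 629 in the other granulosa cells. Foxl2, the transcription factor that keeps granulosa identity, was at 65.9, 85.5 and 140 against 89.4, 151 and 193. All 3 tested granulosa markers (Fst, Amh, Foxl2) passed the test described below as lower. Whether the cells came from follicles under remodeling, as their working name has it, was not measured in these data. The genes that the study named for remodeling follicles were chosen on these same samples and are not independent evidence. Of the 6, Bmp2, Sox4, Cyp1b1 and Cxcl1 were higher than in the other granulosa cells, Atf3 was lower, and Apoe did not pass, where 9.26% of all genes tested were higher and 8.32% lower. Against the Pamr1-type cells described below none of the 6 was higher and 2 were lower, with Apoe at 282, 290 and 257 CPM against 613, 718 and 567, and against the S100a6-type 2 were higher and 2 lower.

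Markers of other cell types were low but not absent. The 3 blood markers were at 0 in all 3 libraries, as were Ddx4, Dazl, Zp2 and Zp3 of oocytes and Upk3b, Krt7 and Lrrn4 of the surface epithelium. The remaining epithelial marker, Krt19, was at 1.48, 1.61 and 0.650 CPM. In the other granulosa cells the 4 epithelial markers together summed to 0.211, 0.592 and 0.690 CPM. The remaining oocyte marker, Gdf9, was at 0 at 4 and 5 wk and at 1.95 CPM at 6 wk. The 5 oocyte markers summed to 1.87, 2.07 and 1.29 CPM in the other granulosa cells. The 5 theca markers summed to 21.5, 48.4 and 72.8 CPM, mostly Mgarp (68.3 CPM at 6 wk), against 51.3, 351 and 170 in the other granulosa cells, and Cyp17a1 and Plin1 were at 0 at 4 wk, Bpifb4 and Plin1 at 5 wk and Cyp17a1 at 6 wk. The 4 pericyte markers summed to 3.70, 9.68 and 1.95 CPM against 10.25, 13.44 and 17.93, with Notch3 at 0 at 5 wk and Emid1 at 0 at 6 wk, and the 3 stromal markers left after Dcn to 19.99, 19.35 and 15.61, against 26.8, 10.1 and 12.7 in the other granulosa cells, with Mmp2 the most abundant. The 4 smooth muscle markers summed to 193, 126 and 96.9 CPM against 120, 56.0 and 75.9. Nearly all of this was Tagln (171, 124 and 92.3 CPM), while Actg2 and Cnn1 were at 0 at 5 wk, where 57 of the 78 smooth muscle UMIs lay in 1 cell. At 4 and 6 wk the top cell held 20.8% and 17.45% of these UMIs. A smooth muscle UMI was found in 42.9%, 34.5% and 40.5% of Lox/Adamts5 cells, against 28.3%, 23.2% and 23.4% of other granulosa cells. Tagln was called higher (1.99-fold, edgeR adjusted p = 1.24e-06), Myh11, the smooth muscle myosin, was called lower (log2 -1.87, edgeR adjusted p = 0.00133), and Actg2 and Cnn1 did not pass. Smooth muscle also expresses Cald1, which was higher (below), and the part of smooth muscle transcripts in that result was not tested.

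The 5 wk library stood apart for endothelial transcripts. Its 4 endothelial markers (Flt1, Esam, Cd93, Pecam1) summed to 194 CPM in the Lox/Adamts5 cells, led by Cd93 (66.1), against 42.6 in the other granulosa cells, and to 4.44 and 4.55 CPM at 4 and 6 wk, where Flt1 and Pecam1, and Esam, respectively, were at 0. Of the 120 endothelial UMIs at 5 wk, 74 lay in 1 cell and 42 in another. Their part in the results of that library was not tested. Cd93 was called higher (log2 1.52) and was at -0.05 without the 5 wk library, and of the other listed genes Npnt, Nrp1, Fdx1 and Bnip3 lost their calls only when that library was left out.

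In genes that took no part in the choice, Lox/Adamts5 cells lay nearer to each other than their number alone gives. Within each library, cells thinned to 10000 UMIs were placed on principal components without the genes of the rules. Of the 20 nearest neighbours of such a cell, 15.3% were Lox/Adamts5 cells at 4 wk, where they made up 4.14% of the cells placed. The values were 15.5% against 2.19% at 5 wk and 24.0% against 3.73% at 6 wk. Most neighbours were therefore other granulosa cells. The other types, defined below, also lay near their own, with 18.0%, 24.2% and 34.5% of the neighbours of Pamr1-type cells being of that type, 21.2%, 27.0% and 18.7% for the S100a6-type, and 45.6% and 43.6% for aromatase-positive cells at 5 and 6 wk. Among the neighbours of Lox/Adamts5 cells, Pamr1-type cells made up 10.24%, 7.68% and 12.01% of the neighbours and 4.09%, 4.45% and 2.96% of the cells placed. S100a6-type cells made up 5.30%, 11.96% and 7.78% of the neighbours and 6.98%, 9.84% and 3.94% of the cells placed.

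To ask which other genes went with the choice, UMIs were summed within each library over the Lox/Adamts5 cells and over the other granulosa cells, and the sums were compared within the 4, 5 and 6 wk libraries by edgeR's quasi-likelihood test. Higher in the Lox/Adamts5 cells were Ghr, the actin-binding gene Cald1 and 13 of 27 genes of anti-Mullerian hormone, BMP and TGF-beta signalling. Lower were the activin subunit genes Inhba and Inhbb, versican (Vcan), 8 of 17 genes of steroid and cholesterol metabolism and 10 of 16 proliferation genes. Against the Pamr1-type cells described below, 3 of 23 genes of the signalling list were higher and 3 lower. Of the steroid and cholesterol list 1 of 11 was lower and none higher, and of 8 proliferation genes none passed. Of all genes tested against that type 2.6% were higher and 3.01% lower. None of Ghr, Cald1, Inhba, Inhbb, Vcan and Hsd3b1 was among the genes named below for that comparison. Of 12566 genes tested outside the rule, 1164 were higher (9.26%) and 1045 lower (8.32%) at a Benjamini-Hochberg adjusted p under 0.05, 17.6% in all. Counts of genes of a list, below, stand against these shares. The p-values measure the spread of the difference between the groups over 3 libraries that also differ in age. A gene's own spread had 2 residual degrees of freedom, while the trend over all genes had 18.03. The p-values thus rest mostly on that trend and little on the gene's own spread. Without a term for the library the counts were 375 and 292.

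Ghr (ENSMUSG00000055737, chr15:3317760-3583492, GRCm38) was at 281, 416 and 324 CPM in the Lox/Adamts5 cells at 4, 5 and 6 wk and at 64.8, 55.3 and 52.2 in the other granulosa cells. The groups did not overlap, and the fitted ratio was 6.02-fold (log2 2.59, SE 0.11, 3 libraries). Ghr gave the group its working name with these data in view, so its level is given without a p. A Ghr UMI was found in 89.8%, 93.1% and 94.6% of Lox/Adamts5 cells, in 34.4%, 34.9% and 36.1% of other granulosa cells and in 11.8%, 6.67% and 3.39% of blood cells.

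The other genes of growth hormone signalling did not follow the receptor as a group. The list of growth hormone, prolactin and gonadotropin receptors and JAK-STAT had 11 tested genes. Of these 2 were higher (Ghr itself and Socs3), 4 lower and 5 did not pass. The median log2 ratio was -0.18 against -0.03 over all genes tested. Ghr is in this count, but its call is no evidence, since it gave the group its working name. Socs2, a feedback inhibitor induced by growth hormone, was at 158, 171 and 154 CPM against 409, 395 and 571, and fell by 1.47 on the log2 scale (SE 0.10, edgeR adjusted p = 1.53e-09). Stat5a, a transcription factor that acts after the receptor, the cytokine receptor kinase Jak1 and the prolactin receptor Prlr were also lower, by log2 -1.18, -0.60 and -1.62, and Prlr was at -2.75 without the 4 wk and -0.86 without the 6 wk library. Jak2, the kinase bound to the receptor, gave log2 0.64 and missed the threshold (edgeR adjusted p = 0.069). Fshr, the receptor of follicle-stimulating hormone, was at 5.18, 4.84 and 6.50 CPM against 4.98, 8.16 and 13.5 and did not pass.

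The raised genes named here were chosen for the highest ratios among genes of at least 50 CPM that were higher in each library. Lack of overlap between the groups follows largely from that choice. Tgfb2, under 50 CPM, is given with its list. Cald1 (caldesmon, ENSMUSG00000029761), which binds actin and myosin, was at 1695, 1824 and 1724 CPM against 481, 349 and 233. This was 5.32-fold higher (log2 2.41, SE 0.12, edgeR adjusted p = 6.77e-12), and the libraries of the 2 groups did not overlap. Fgd5, an exchange factor for Cdc42, was at 79.2, 121 and 91.0 CPM against 24.8, 21.9 and 12.6. Pdlim5, an actin-binding scaffold, was 4.22-fold higher, Phldb2, which anchors microtubules at adhesions, 4.22-fold, Filip1l 4.18-fold and the GTPase-activating protein gene Arhgap6 3.99-fold.

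Asb4, a substrate adaptor of a ubiquitin ligase, was at 71.8, 171 and 130 CPM against 24.1, 26.6 and 20.9, 5.14-fold higher (edgeR adjusted p = 1.19e-09). The remaining raised genes of the rule for names were Ptprz1, a receptor phosphatase (4.26-fold), the transcription regulators Rai2 (4.19-fold) and Maf (4.09-fold), and the RNA-binding protein gene Rbms3 (3.99-fold). Among these Maf and Rbms3 were lowest at 4 wk and Ptprz1 was lowest at 6 wk, but all remained above the other granulosa cells in each library.

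**Figure D2:**
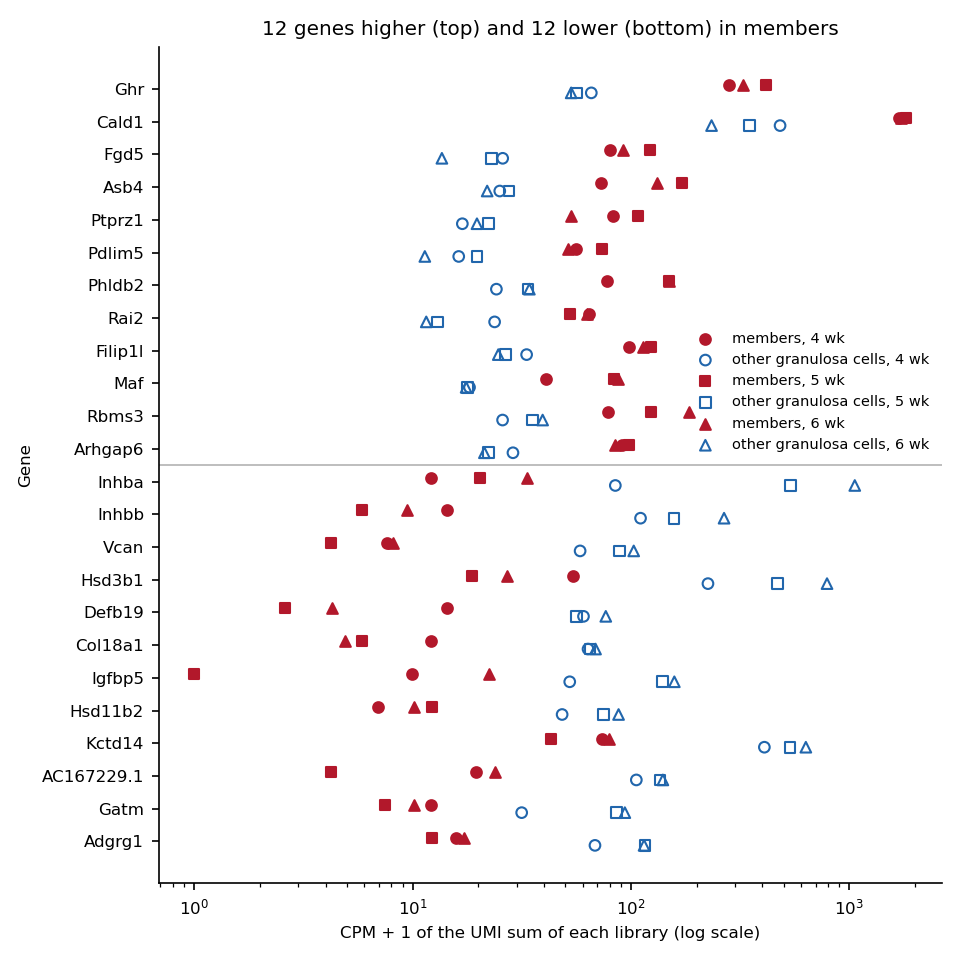
CPM + 1 (log scale, horizontal axis) of the 12 genes most raised (top) and 12 most lowered (bottom) in Lox/Adamts5 cells among genes of at least 50 CPM in the higher group, in each library. Filled red symbols are Lox/Adamts5 cells, open blue symbols other granulosa cells. The groups did not overlap for any of these genes, which were chosen to differ in the same direction in each library, and Igfbp5 at 5 wk was at 0 CPM.

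Lowest in ratio among genes of at least 50 CPM were those of the activin and inhibin beta subunits. Inhba (ENSMUSG00000041324) was at 11.1, 19.3 and 32.5 CPM in the Lox/Adamts5 cells at 4, 5 and 6 wk, and at 83.8, 537 and 1058 CPM in the other granulosa cells. It fell by 4.60 on the log2 scale (SE 0.19, edgeR adjusted p = 1.12e-12). Inhbb (ENSMUSG00000037035) was at 13.3, 4.84 and 8.45 CPM against 110, 157 and 266, a fall by 4.18 on the log2 scale (SE 0.22, edgeR adjusted p = 3.09e-11). Without the 6 wk library the log2 ratio of Inhba was -3.96, and that of Inhbb was -4.94 without the 4 wk and -3.52 without the 6 wk library. The other granulosa cells climbed in both genes from 4 to 6 wk, and the Lox/Adamts5 cells stayed under 33 CPM in each library.

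Versican and steroid genes followed. Vcan, the large proteoglycan that Adamts5 cuts, was at 6.66, 3.22 and 7.15 CPM against 57.5, 87.6 and 102, a fall by 3.67 on the log2 scale (SE 0.22, edgeR adjusted p = 1.37e-10). Hsd3b1, which makes progesterone from pregnenolone, was at 53.3, 17.7 and 26.01 CPM against 224, 466 and 789. Its log2 ratio of -3.66 was -4.83 without the 4 wk and -2.82 without the 6 wk library. Hsd11b2, which inactivates glucocorticoid, was at 5.92, 11.3 and 9.10 against 47.4, 73.7 and 86.7. Each of these was lower in every library. Igfbp5, which binds insulin-like growth factors, fell by 3.13 on the log2 scale, Col18a1 by 3.20 (log2 -3.95 without the 4 wk library), the defensin Defb19 by 3.22 (log2 -4.61 without 4 wk and -2.58 without 6 wk), Kctd14 by 2.89, AC167229.1 by 2.81, the creatine synthesis gene Gatm by 2.75 (log2 -3.402 without 4 wk) and the adhesion receptor Adgrg1 by 2.65.

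Of 9 tested genes of oestrogen synthesis and the response to follicle-stimulating hormone, 6 were lower and 2 higher. Against the Pamr1-type cells described below, 1 of 7 was lower and 1 higher. Hsd17b1, which makes oestradiol from oestrone, was at 28.9, 69.3 and 77.4 CPM against 108, 317 and 444. Aromatase itself (Cyp19a1) had 2 UMIs in all Lox/Adamts5 cells, both at 6 wk (1.30 CPM), against 0.905, 12.7 and 16.1 CPM. Grb14, an adaptor that restrains insulin receptor signalling, went the other way, at 1451, 1674 and 1418 CPM against 822, 693 and 567 (2.27-fold, edgeR adjusted p = 2.76e-10). The other raised gene, Nr5a1, did not pass when any of the 3 libraries was left out.

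Among 17 tested genes of steroid and cholesterol metabolism 8 were lower and 1 was higher, and theca transcripts were among the lowered. Cyp11a1, the first enzyme of steroid synthesis, was at 4.44, 4.84 and 1.30 CPM against 15.4, 122 and 27.9. Cyp17a1, a theca enzyme, had 2 UMIs in the Lox/Adamts5 cells, at 5 wk, against 5.46, 75.2 and 4.11 CPM. The gene that was higher was Hsd17b7, which acts in both oestradiol and cholesterol synthesis, at 69.6, 119 and 105 CPM against 23.9, 28.9 and 30.1 (3.55-fold, edgeR adjusted p = 1.44e-09). At 4, 5 and 6 wk 15.3%, 44.8% and 52.7% of Lox/Adamts5 cells had a UMI of a theca marker, against 24.2%, 54.7% and 52.9% of other granulosa cells. The part of theca transcripts in these values was not tested.

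**Figure D3:**
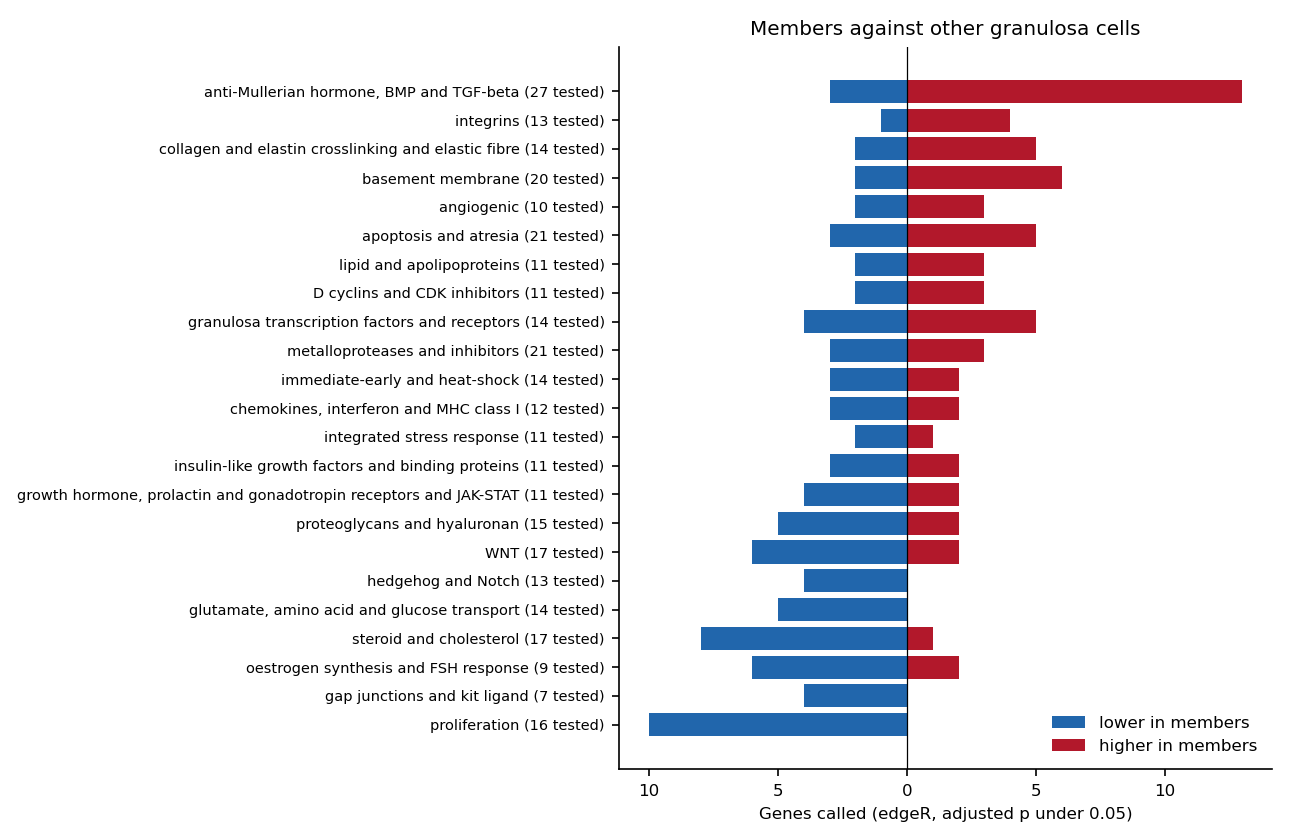
Number of genes called by edgeR (horizontal axis, adjusted p under 0.05) that were higher (red, to the right) or lower (blue, to the left) in Lox/Adamts5 cells than in other granulosa cells, for each list (vertical axis) with at least 7 genes tested. The anti-Mullerian hormone, BMP and TGF-beta list had 13 higher and 3 lower, and the proliferation list 10 lower and none higher.

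Of the 27 tested genes of anti-Mullerian hormone, BMP and TGF-beta signalling 13 were higher, 3 lower and 11 did not pass. The median log2 ratio was 0.48 against -0.03 over all genes tested. Against the Pamr1-type cells described below, 3 of 23 were higher, 3 lower and 17 did not pass, with a median log2 ratio of -0.04. The ligands were split. Amh, which restrains follicle growth, was at 134, 56.4 and 37.7 CPM against 477, 254 and 230, and its receptor Amhr2 was at 103, 91.9 and 91.0 CPM against 263, 226 and 207. Both were lower in each library (log2 -2.09 and -1.23, edgeR adjusted p = 9.13e-11 and 6.54e-09).

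Tgfb2 was at 25.2, 41.9 and 68.3 CPM against 5.97, 7.82 and 7.18, 6.55-fold higher (log2 2.71, SE 0.23, edgeR adjusted p = 2.92e-08). Tgfb3 was 2.89-fold higher and Tgfb1 1.73-fold. Bmp2, a ligand made by granulosa cells, was at 164, 150 and 159 CPM against 61.8, 64.6 and 60.6, nearly the same in each library within both groups (2.63-fold, edgeR adjusted p = 1.78e-09). Among receptors Bmpr2 was 2.04-fold higher and Bmpr1b 1.35-fold, and among targets and inhibitors of the pathway Smad6 was 2.70-fold higher, Smad7 1.45-fold and Id3 1.43-fold. The calls of the receptors Bmpr1a, Tgfbr2 and Tgfbr3 did not hold in every fit that left out a library.

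Genes of the matrix moved in both directions. Of 14 tested genes of collagen and elastin crosslinking and the elastic fibre, 5 were higher and 2 lower. Fbn2 (fibrillin-2) was at 533, 492 and 574 CPM against 135, 172 and 208 (3.25-fold, edgeR adjusted p = 3.45e-11), Fbn1 was 1.80-fold higher, Fbln5, which assembles elastic fibres, 3.72-fold, and Plod2, which hydroxylates collagen for crosslinks, 1.47-fold. Ltbp1, which binds latent TGF-beta to fibrillin, fell by 2.17 on the log2 scale. The fibrillins were thus higher in the cells chosen in part by Lox, and the binding protein lower.

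Of 20 tested genes of the basement membrane 6 were higher and 2 lower. Col4a5, a collagen IV chain, was at 90.3, 148 and 124 CPM against 34.2, 58.8 and 53.0 (2.57-fold, edgeR adjusted p = 1.04e-08), and Col4a4 and Col4a6 were 1.95-fold and 2.07-fold higher. Nid2, a nidogen, was 3.81-fold higher on 23 UMIs. Npnt was called higher only with the 5 wk library, where it was at 20.96 CPM against 3.70 and 1.30 at 4 and 6 wk. Among 13 integrins Itga2, Itgb1 and Itgb8 were higher (2.04-fold, 1.53-fold and 2.94-fold), Itga6, a laminin receptor, was at 33.3, 38.7 and 44.2 CPM against 92.0, 130 and 157, and Itga1 did not pass without the 6 wk library.

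Of 15 proteoglycan genes tested 5 were lower, Vcan the furthest, and 2 higher, namely Sdc2 (2.07-fold) and Gpc6 (3.84-fold), membrane heparan sulphate proteoglycans. Of 21 metalloproteases and inhibitors 3 were higher and 3 lower, and 1 higher and 2 lower without the 6 wk library. Mmp11 was at 290, 269 and 283 CPM against 170, 192 and 125 (1.84-fold, edgeR adjusted p = 2.07e-06), while Adamts19 and Timp3 fell by 1.02 and 1.04 on the log2 scale. Serpine2, an inhibitor of plasminogen activators and thrombin, was at 455, 311 and 386 CPM against 982, 985 and 1045 and was the only 1 of 4 plasminogen system genes to pass.

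The cells carried few transcripts of division. Both groups were free of Ube2c by the rule. Of 16 tested proliferation genes 10 were lower and none higher (median log2 -1.32), and 6 were lower without the 6 wk library. Top2a was at 9.63, 1.61 and 4.55 CPM against 40.0, 20.1 and 26.6, and the replication helicase genes Mcm2, Mcm3, Mcm4 and Mcm5 fell by 1.53, 1.64, 1.48 and 1.75 on the log2 scale (log2 -2.28 for Mcm3 without the 5 wk library). Ccnd2, the D cyclin of granulosa cells, was at 149, 74.2 and 169 CPM against 480, 349 and 550 (log2 -1.76, edgeR adjusted p = 4.21e-11). Of 11 tested genes of D cyclins and CDK inhibitors 3 were higher and 2 lower, and 5 higher and 1 lower without the 4 wk library. Cdkn1b, a CDK inhibitor, was 1.45-fold higher, Gadd45a 2.45-fold and Gadd45b 2.21-fold. The lowered genes were Ccnd2 and Gadd45g, and Gadd45g did not pass without the 4 wk or the 6 wk library.

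Of 21 tested genes of apoptosis and atresia 5 were higher and 3 lower, against 9.26% and 8.32% of all genes. Without the 4 wk or the 6 wk library 2 were higher and 2 lower. Foxo1 was at 942, 805 and 906 CPM against 653, 557 and 636 (1.48-fold, edgeR adjusted p = 5.08e-07), and the p53 target Trp53inp1 was 1.98-fold higher. Of 14 immediate-early and heat-shock genes 2 were higher and 3 lower, and 1 higher and 5 lower without the 4 wk library. Of 11 genes of the integrated stress response Nupr1 was higher and 2 were lower, and Nupr1 did not pass without the 6 wk library.

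Among genes of signals between cells, several ligands were lower. Of 17 WNT genes 6 were lower and 2 higher, and Wnt4, which granulosa cells secrete, was at 34.8, 22.6 and 36.4 CPM against 130, 138 and 150 (log2 -2.04, edgeR adjusted p = 6.48e-10). Of 13 hedgehog and Notch genes 4 were lower and none higher. The hedgehog ligands that signal to theca, Ihh and Dhh, were at 9.63, 12.9 and 18.9 CPM and at 7.41, 8.06 and 11.1 CPM, against 57.5, 59.9 and 88.8 and against 33.0, 36.7 and 39.6. Of 7 genes of gap junctions and kit ligand 4 were lower and none higher. Kitl, which granulosa cells present to the oocyte, was at 18.5, 43.5 and 65.7 CPM against 60.8, 144 and 115, Npr2 fell by 1.80, Nppc by 1.66 and Gja1 (connexin 43) by 0.48 on the log2 scale.

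The transcription factors of granulosa cells were mixed, with 5 of 14 higher and 4 lower, and 3 higher and 4 lower without the 4 wk library. Sox4 was at 2892, 2030 and 2573 CPM against 1652, 1093 and 1112 (2.03-fold, edgeR adjusted p = 1.56e-10), and Nr2f2 was 1.65-fold higher. Gata4 was at 14.1, 14.5 and 34.5 CPM against 59.9, 72.7 and 76.1, and Emx2 fell by 0.998 on the log2 scale. Of 10 angiogenic genes 3 were higher and 2 lower. Thbs1 (thrombospondin-1), an inhibitor of vessel growth, was at 729, 1011 and 867 CPM against 260, 336 and 294 (3.01-fold, edgeR adjusted p = 1.08e-12), and Vegfa fell by 1.20 on the log2 scale. Nrp1 passed only with the 5 wk library.

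Smaller lists are given by their counts. Of 11 insulin-like growth factor genes 2 were higher (Igf1r 1.34-fold, Insr 1.46-fold) and 3 lower, with Igf1 at 129, 69.3 and 68.9 CPM against 215, 131 and 127. Of 14 amino acid and glucose transporters other than Slc1a1, 5 were lower and none higher, among them Slc38a3 and Slc38a5 (both log2 -0.92). Of 11 lipid and apolipoprotein genes 3 were higher and 2 lower, and of 12 chemokine, interferon and MHC class I genes 2 were higher and 3 lower. Without the 4 wk library the lipid list had 1 higher and 1 lower, and the chemokine list 1 higher and 3 lower of 14. Over all lists 160 of 351 genes passed, and 113 of these passed in each of the 3 fits that left out a library. Those fits had 1 residual degree of freedom, and without the 4 or the 5 wk library no variance beyond the trend was found, so that passing there rests nearly on counting error and is no check of stability. The genes given above as higher or lower by name are of the 113 unless said otherwise, or were named by the rule.

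The levels were graded with the number of the 5 genes in a cell. In cells thinned to 10000 UMIs, Ghr at 4 wk was at 32.7 CPM (Poisson 95% interval 29.8 to 35.8) where none of the 5 genes was found, at 86.6 (78.8 to 95.04) with 1, at 222 (199.9 to 246.6) with 2 and at 334 (290 to 383) with 3 or more. At 6 wk the values were 30.5, 92.1, 229 and 349 CPM. Cald1 at 6 wk went from 162 through 292 and 877 to 2031 CPM. Of the 12 raised genes 9, 12 and 12 increased at every step at 4, 5 and 6 wk, and of the 12 lowered genes 8, 9 and 9 decreased at every step. Among the genes drawn, Inhba and Inhbb did not decrease at every step in each library. Inhba at 6 wk was at 1139 CPM with none of the 5 genes, at 1372 with 1, at 353 with 2 and at 28.6 with 3 or more. Since these genes were named for differing between the ends of this scale, the steps are a description. Cells with 2 genes lay between those with 1 and those with 3 or more in Ghr and Cald1.

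**Figure D4:**
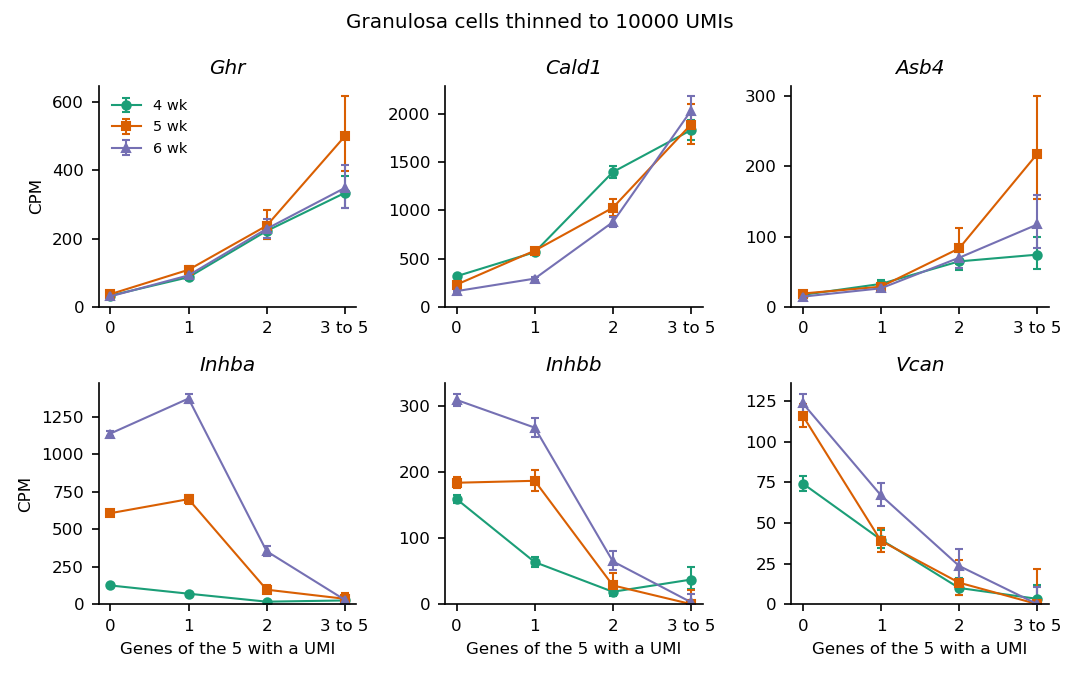
CPM (vertical axis, from 0) of 3 raised genes (Ghr, Cald1, Asb4) and 3 lowered genes (Inhba, Inhbb, Vcan) in granulosa cells thinned to 10000 UMIs, by the number of the 5 genes with a UMI (horizontal axis), at 4, 5 and 6 wk. Bars are 95% Poisson intervals of counting error. Ghr and Cald1 increased at every step in each library, and Inhba at 6 wk peaked at 1372 CPM with 1 gene.

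The first type compared was granulosa cells with a UMI of Pamr1 and of Bicc1 or Angpt2, which numbered 124, 69 and 71 at 4, 5 and 6 wk. Since the rule for Lox/Adamts5 cells bars Pamr1, no cell was in both groups, but 36 of the Pamr1-type cells of these libraries had 3 or more of the 5 genes. Of 8791 genes tested outside either rule, 229 were higher in the Lox/Adamts5 cells (2.6%) and 265 lower (3.01%), 5.62% in all. Against Pamr1-type cells with at most 2 of the 5 genes, an alternative added after the data were seen, the counts were 416 and 410.

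Higher in the Lox/Adamts5 cells than in the Pamr1-type were Limch1, which activates myosin (3.39-fold), Tex14 (3.05-fold), Col11a1, Fst, Fbn2 and Apoa4 (2.41-fold). Col11a1, a fibrillar collagen chain, was at 561, 235 and 316 CPM against 194, 85.2 and 114 (2.91-fold, edgeR adjusted p = 4.05e-09). Fst was at 260, 232 and 263 against 148, 97.8 and 53.7 (2.68-fold, edgeR adjusted p = 8.02e-06). Fbn2 was at 533, 492 and 574 against 220, 218 and 231 CPM (2.47-fold, edgeR adjusted p = 1.17e-08). None of these overlapped between the groups, which follows largely from their choice as the highest ratios on the same side in each library. Lower were AC167229.1, which fell by 3.24 on the log2 scale, Igfbp5 by 2.57, Pdlim4 by 2.27, Tmem100 by 2.23, the gelatinase gene Mmp2 by 1.96 and the R-spondin receptor Lgr6 by 1.96. Ghr was at 215, 181 and 278 CPM in the Pamr1-type, and Sox4 was at 3098, 2062 and 2903.

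A further type, granulosa cells with a UMI each of S100a6, Nupr1 and Agt and at most 2 of the 5 genes, numbered 150, 128 and 78. Of 9321 genes tested 657 were higher in the Lox/Adamts5 cells (7.05%) and 653 lower (7.01%), 14.1% in all. Without the 4 wk library 427 were lower. Col11a1 was 4.53-fold higher (561, 235 and 316 CPM against 123, 54.3 and 69.1, edgeR adjusted p = 5.99e-12), Arhgap6 4.27-fold, Pde1a, a cyclic nucleotide phosphodiesterase, 4.25-fold, Ptprz1 3.98-fold and Bmp3 3.86-fold. Ghr was at 86.9, 62.8 and 71.9 CPM in the S100a6-type cells. Spp1 (osteopontin) had 3 UMIs in the Lox/Adamts5 cells and was at 64.3, 61.8 and 12.4 CPM in the S100a6-type. Inhba fell by 3.11, Inhbb by 3.06, Rgcc by 2.78, Kctd14 by 2.17 and Cyp11a1 by 3.67 on the log2 scale.

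Oestrogen-making granulosa cells, taken as other granulosa cells in which both Cyp19a1 and Hsd17b1 had a UMI, numbered 19, 100 and 221 at 4, 5 and 6 wk, and the sums were fitted at 5 and 6 wk only. Of 9682 genes tested 1391 were higher in the Lox/Adamts5 cells (14.4%) and 1112 lower (11.5%), 25.9% in all. With 2 libraries the fit had 1 residual degree of freedom and found no variance beyond its trend, so that its p-values rest nearly on counting error and none is given. Inhba was at 19.3 and 32.5 CPM against 3956 and 4664, and Hsd3b1 was at 17.7 and 26.01 against 1914 and 2263. Cald1 was at 1824 and 1724 CPM against 56.9 and 63.1, Ghr at 416 and 324 against 15.7 and 15.2, Cdc42ep3, a Cdc42 effector, at 185 and 220 against 4.64 and 11.8, and Tgfb2 at 41.9 and 68.3 against 1.74 and 3.19.

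**Figure D5:**
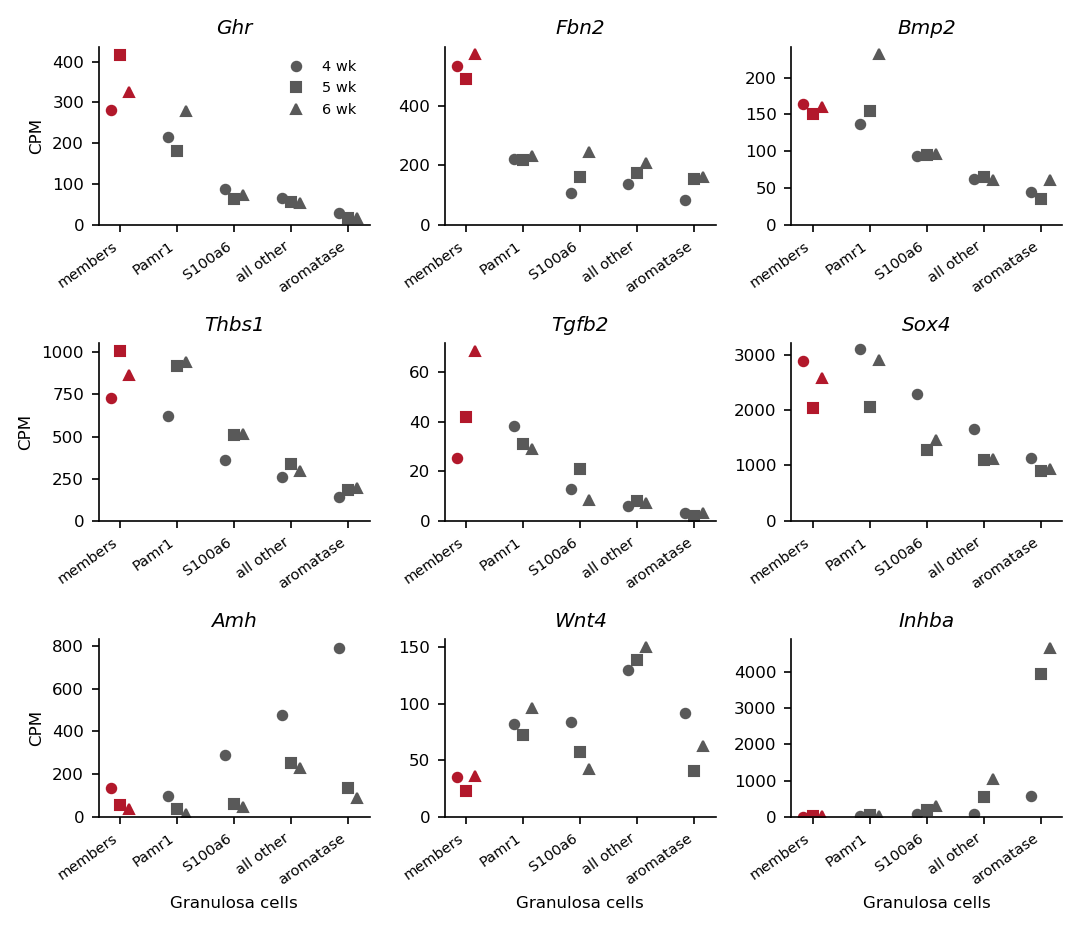
CPM (vertical axis, from 0) of 9 genes in Lox/Adamts5 cells (red) and, in grey, Pamr1-type, S100a6-type, all other and aromatase-positive granulosa cells (horizontal axis), in the 4, 5 and 6 wk libraries. All other cells include the S100a6-type and aromatase-positive cells, and the aromatase-positive group at 4 wk held 19 cells. Ghr and Fbn2 were highest in the Lox/Adamts5 cells in each library, and Inhba was highest in the aromatase-positive cells.

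Within the Lox/Adamts5 cells some named genes kept their level between the libraries and others did not. With 1 library per age there is no test between ages, and the 5 and 6 wk matrices were written by another version of Cell Ranger than the 4 wk matrix, so that age, library and version cannot be told apart. Of 1513 genes with at least 200 UMIs in the 4 and 6 wk cells together, the median ratio of 6 wk over 4 wk was 1.045, 168 were over 1.5 and 74 were under the inverse of 1.5. Cald1 was at 1.02 (exact interval of counting error 0.961 to 1.08) and Ghr at 1.15 (1.01 to 1.32), whereas in the other granulosa cells Cald1 was at 0.484 (0.472 to 0.498). Rbms3 was at 2.35 (1.87 to 2.97) and Maf at 2.15 (1.55 to 3.00).

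The highest ratios of 6 wk over 4 wk were those of AY036118 (5.64), Lars2 (4.95), Nrn1 (4.21), Cstb (3.79), Ost4 (3.68) and Cebpb (3.51). In the other granulosa cells the same ratios were 5.42, 3.41, 1.92, 2.13, 3.05 and 2.94, so that the libraries differed in these genes outside the Lox/Adamts5 cells too. The lowest were Amh (0.281), Pim1 (0.335), Fosb (0.397), Klf4 (0.400), Epb41l4aos (0.437) and Dnajb1 (0.448). Amh in the Lox/Adamts5 cells was at 134 CPM at 4 wk, 56.4 at 5 wk and 37.7 at 6 wk, a ratio with an interval of 0.206 to 0.380, and in the other granulosa cells the ratio was 0.483 (0.470 to 0.496). Fosb, Klf4 and Dnajb1, which respond to stress and handling, were at 0.614, 0.519 and 0.474 in the other granulosa cells.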

How the data were processed

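The authors dissociated ovaries with trypsin, sorted live cells by dye exclusion, prepared 10x Genomics libraries (3′ chemistry v3.1), aligned reads to mm10 and deposited filtered matrices of UMI counts per gene and cell. The deposited matrices name Cell Ranger 3.1.0 (2, 3 and 4 wk) and 6.0.1 (5 and 6 wk), and the submitters' processing notes also name Seurat 4.1.0. Total counts per library ranged from 93438618 to 144609431.

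The members, gene lists and tests were chosen with earlier results of these data known. Raw counts were summed per library and cell group and fitted with edgeR 4.0.16 (R 4.3.3): TMM scaling, filterByExpr, glmQLFit and glmQLFTest, library as block, Benjamini-Hochberg adjustment over all genes. Ages were taken from the labels. The plan named 5 libraries, but only libraries with at least 20 cells in both groups under the rule were fitted, which left 3 (2 for aromatase). The alternatives kept these 3, also where fewer members remained. The 10 genes of the rule, and those defining the type compared, took no part. Cells and libraries are not replicates of an age. The p-values measure the spread of the group difference over these libraries, estimated mostly from the trend over all genes. CPM and intervals were computed from the sums (scipy 1.17.1), as was the standard error of a log2 ratio from its F statistic. Named genes were the 12 highest and 12 lowest log2 ratios (6 each in comparisons with types) past an adjusted p of 0.05, on the same side in each library, with at least 50 CPM over the libraries in the higher group, without ribosomal, mitochondrial, Gm and Rik genes or genes of the rules. For ages these were the 6 highest and 6 lowest ratios among genes with 200 UMIs and 100 CPM. Doublets were called with Scrublet in scanpy 1.11.5 (7 of 202 members) and kept. Of 47890 distinct barcodes 273 occurred in more than 1 library, 2 of them members. The fits were tested on simulated data. A few results are not reported here. The alternatives were DESeq2 1.42.0 and its size factors, no library block, no low-count filter, 4 of the 5 genes, none of the 5 in the other cells, thinning, 10000 to 30000 UMIs, no doublet calls, stricter quality (2000 genes, 10%), another denominator, and leaving out each library.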

Additional observations from a re-analysis of the deposited data

Results flagged for a closer look

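Some listed genes were higher in Lox/Adamts5 cells than in other granulosa cells in 1 library and lower in another, each beyond counting error. The difference between libraries was not tested, since each age had 1 library, and no explanation was tested. Values are ratios of CPM at 4, 5 and 6 wk. For 4 genes the ratio was highest at 5 wk, with Igfbp7 at 0.987, 3.36 and 0.398, Hspg2 at 0.689, 1.69 and 1.30, Col4a1 at 0.717, 2.47 and 0.993, and Esam at 0.837, 4.58 and 0. That is the library in which 2 cells held 74 and 42 of the 120 endothelial UMIs.

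Nupr1, a stress-response gene that also marks the S100a6-type cells, went from 0.785 through 1.34 to 3.14, with 447, 510 and 728 CPM in the Lox/Adamts5 cells and 570, 382 and 231 in the others. Lgr6 was at 0.491, 1.41 and 2.48, and Id1 at 0.679, 0.932 and 1.22. The other way went Wt1 at 1.27, 0.945 and 0.787 and the smooth muscle gene Actg2 at 1.73, 0 and 0.307. Ldhb was at 1.08, 0.833 and 1.01.

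Outside the cells analysed, 4 cells of the 6 wk library and 1 of the 4 wk library met every condition on UMIs but failed the limits on detected genes or mitochondrial share.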

How the results depend on the processing

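The 24 named genes were chosen for the largest ratios past the threshold, on the same side in each library. The alternatives refit counts of the same libraries, so keeping direction is largely given by the choice and is no independent check. Ghr, 1 of the 24, also gave the group its working name with these data in view. The 24 genes kept direction in all 312 results under the 13 alternatives run. They kept their side of the threshold in the 192 results of the 8 alternatives whose p-values rest on more than counting error. In the other 5 (no filter on low counts, 4 of the 5 genes, thinning, without 4 wk, without 5 wk) edgeR found no variance beyond its trend, and passing there says nothing of stability. With 4 genes the members numbered 23, 8 and 15, and after thinning 62, 17 and 35, so that some sums held fewer than 20 cells. Sizes moved both ways. The log2 ratio of Inhbb was -3.11 after thinning and -3.13 with 4 genes, that of Gatm -1.61 with 4 genes, -4.35 after thinning and -3.72 without doublet calls, that of Hsd3b1 -4.92, -4.59 and -4.67 in that order, that of Defb19 -4.27 without doublet calls, that of Hsd11b2 -4.86 with 4 genes, that of Igfbp5 -3.87 with DESeq2, and those of Vcan, Col18a1 and Kctd14 -5.48, -3.99 and -3.56 after thinning. The thinned members held 2 UMIs of Vcan and 3 of Gatm, so that these ratios depend on the prior count. Against cells with none of the 5 genes those of Ghr, Cald1, Fgd5, Rai2 and Arhgap6 were 3.59, 3.15, 3.14, 2.72 and 2.79. The counts of 1164 genes higher and 1045 lower became 375 and 292 without the library block, 545 and 627 with at least 4 of the 5 genes, 763 and 810 with cells thinned to 10000 UMIs, and 560 lower with DESeq2. With no filter on low counts 953 were higher and 1386 lower. Lower calls thus outnumbered higher ones without the filter, with 4 genes, after thinning and without the 5 wk library (1011 and 1114). Leaving out a library gave 812 to 1011 higher and 696 to 1114 lower, the fewest without the 6 wk library. Against the Pamr1-type the ranges were 155 to 289 and 213 to 325, and counts against cells with at most 2 of the 5 genes, added later, were 416 and 410. Against the S100a6-type they were 502 to 696 and 427 to 655, the fewest without 4 wk. For aromatase-positive cells no library could be left out of a test, since 1 would remain. The causes were not tested.

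Shares at 4, 5 and 6 wk were 0.849%, 0.562% and 0.726% with at least 4 of the 5 genes, 2.91%, 1.31% and 1.64% after thinning, and 1.07%, 0.442% and 0.839% of all cells past the quality limits. The share at 3 wk was 0 with 4 genes and after thinning, that at 6 wk 4.66% under stricter quality limits, and that at 2 wk 0.259% without the Dcn condition (added later). The library block already pairs both sums of a library, and labels give no other pairing. With 29 members at 5 wk, depth limits genes of few UMIs.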
